A study of Mus musculus with 6 samples.

Results

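The genes of glycolysis, lactate exchange and pyruvate entry were followed in LSK cells of mouse bone marrow. These cells are sorted as negative for lineage markers and positive for Sca1 and cKit, and the fraction includes blood stem cells and early progenitors. The group was set by a list of 33 genes and by a rule that takes, for each gene, the probe set with the highest mean signal among those naming that gene alone. Of these, 29 had such a probe set among 18193 genes on the array, 26 passed the filter on mean signal and were tested, and 3 (Eno2, Slc16a3 and Pdk2) lay at the floor of 30 on all 6 arrays. Gpi1, Eno1 and Mpc2 had no probe set of their own under this rule, and Gapdh had only control probe sets of its own. After 2 rounds of linear amplification, each RNA was read on an Affymetrix Mouse Genome 430 2.0 array as MAS5 signals on a linear scale.

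The 3 ERCC1-deficient samples came from mice that carry 1 knockout and 1 truncated allele of Ercc1 (-/d), which encodes a subunit of a DNA repair endonuclease. The 3 ERCC1-proficient samples were litter mates, +/+ in litters 1 and 2 and +/d, that is with 1 truncated allele of their own, in litter 3. All mice were F1 animals of C57BL/6 and FVB/n, aged 22 weeks in litter 1 and 20 weeks in litters 2 and 3. The alleles are not restricted to blood cells in the labels, and nothing in them tells if each sample is a single mouse or a pool, so every p-value below speaks only of the spread among these 6 samples. The comparison asks how expression in LSK cells differs with reduced Ercc1 function.

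Glycolysis splits glucose into pyruvate in the cytosol. Pyruvate is then either reduced to lactate by lactate dehydrogenase and exported through monocarboxylate carriers, or taken into mitochondria and oxidised by the pyruvate dehydrogenase complex, which pyruvate dehydrogenase kinases switch off. Quiescent blood stem cells in the low-oxygen marrow are known for a reliance on glycolysis, supported by hypoxia-inducible factor 1 and its target kinases, while cycling progenitors use more mitochondrial oxidation.

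Libraries differed by litter and in the cells they may hold. None of 10 LSK markers lay at the floor, Kit and Cd34 included; Ly6a, which encodes Sca1, was not used here. The summed signal of these 10 markers in the deficient sample was 0.999, 0.729 and 0.876 times that of its litter mate in litters 1, 2 and 3. Single markers differed more than this sum, which the bright Mecom and Runx1 probe sets weigh on: Kit, Cd34, Flt3, Meis1, Hlf and Erg were lower in the deficient sample of each litter, and Gata2 was higher. The receptor gene Flt3 (ratios 0.292, 0.474 and 0.530) and the stem cell transcription factor gene Hlf (0.307, 0.343 and 0.643) passed in limma with litter as a block (adjusted p = 0.0349 and 0.0147). The summed signal of 11 markers of mature granulocytes and macrophages ranged from 6071 to 88577 in deficient and from 698 to 19238 in proficient samples. Its deficient-over-proficient ratio was 8.69, 5.24 and 4.60 in litters 1, 2 and 3. The bright S100a8 and S100a9 probe sets weigh on this sum. Camp, Ngp, Ltf, S100a8, S100a9, Chil3 and Mmp9 were each higher in the deficient sample of every litter. Lcn2 was higher in litters 2 and 3 and at the floor in both samples of litter 1. The ratios of Csf1r were 1.21, 1.08 and 0.826, and Mmp8 and Itgam lay at the floor. For 7 markers of granulocyte and monocyte progenitors, none of them at the floor, the sums ranged from 14891 to 42357 against 3904 to 20705, with ratios of 3.81, 2.07 and 1.74. Of 8 erythroid markers, Hba-a1 and Alas2 lay at the floor, and the sum ranged from 2303 to 4406 in deficient and from 2294 to 5870 in proficient samples. The geometric mean of 9 spike-in probe sets, which are added to the hybridisation mix, was 2.18, 1.08 and 1.13 times as high in the deficient array of litters 1, 2 and 3. Between 52.3% and 58.6% of probe sets lay at the floor of an array. In such bulk RNA, fewer cells of a type and less RNA per cell cannot be told apart, and the part of these differences in the results was not tested.

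Ldhb, the heart-type subunit of lactate dehydrogenase, was the member that fell in Ercc1-deficient cells when litter mates were compared with each other; no other member passed the test in either direction. With litter as a block, 1 of 26 members passed in limma at an adjusted p under 0.05, which is 3.85% of those tested, against 0.835% of all probe sets and 1.11% of all genes by their brightest probe set (0.514% of genes higher and 0.597% lower). Without a litter term 0 of 26 passed, as did 0% of the 22519 probe sets tested, and 1 member, Ldhb, had an unadjusted p under 0.05 in limma, against 2.57% of probe sets. With litter as a block 5 members had an unadjusted p under 0.05 (19.2%), against 11.5% of probe sets and 12.1% of genes: Hk3, Slc16a1 and Mpc1 had higher signals in deficient cells, against 4.69% of genes, and Ldhb and Slc2a3 lower ones, against 7.42%.

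**Figure D1:**
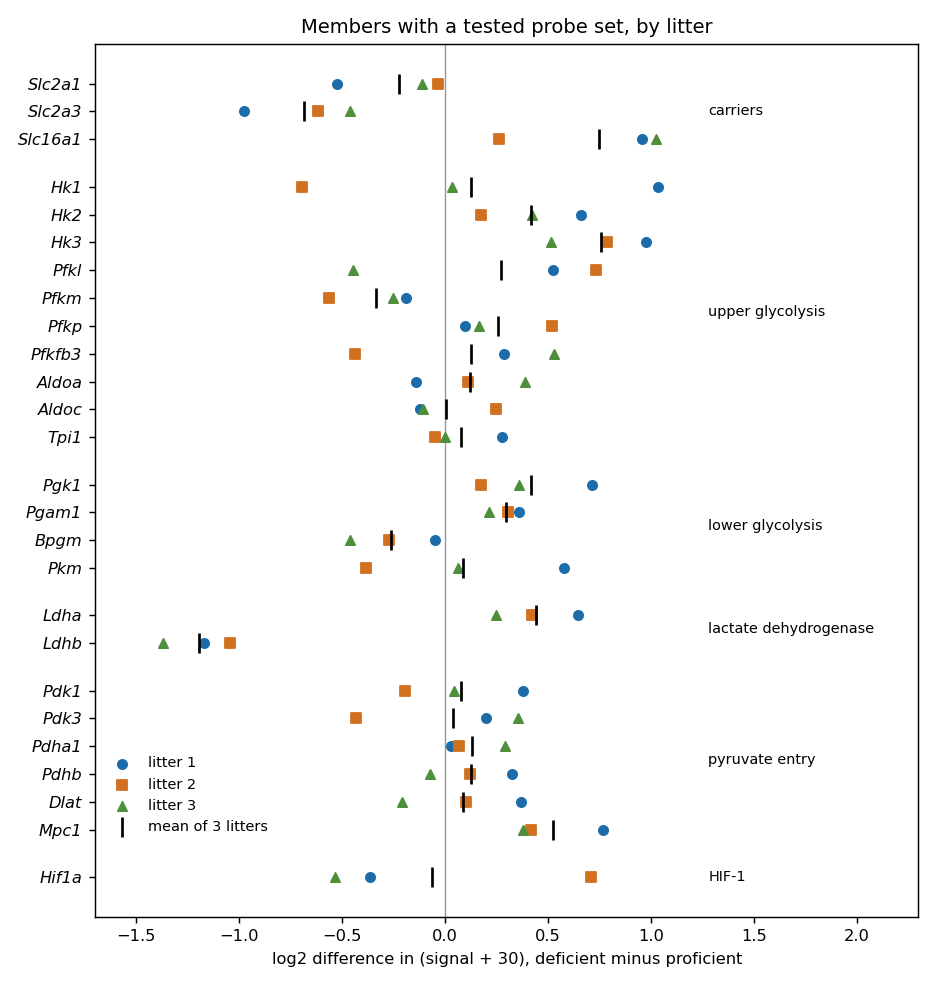
Log2 difference in signal + 30, deficient minus proficient, for the 26 tested members (rows, grouped by role), with 1 point per litter and a black bar for the mean of the 3 litters. Ldhb lies furthest to the left, between -1.37 and -1.04, and most other members lie within 0.5 of 0 on average.

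The remaining members leaned slightly upwards. The log2 difference was above 0 for 20 of 26 members (76.9%), against 46.8% of genes, with a median of 0.12 against -0.02 over all 10885 genes tested. By litter, 18, 15 and 16 of the 26 lay above 0 in litters 1, 2 and 3, which is 69.2%, 57.7% and 61.5% against 48.3%, 42.4% and 41.6% of genes. These shares are not matched for signal. Genes at the floor in both samples of a litter differ by 0 and count as not above it. The median over all genes was 0 in litters 1 and 3, and of the tested members only Pfkl had a value at the floor. Without the proficient array of litter 1, 12 of 26 lay above 0 and the median was -0.03 in the fit without a litter term. That fit keeps the deficient sample of litter 1 without its litter mate. With both samples of litter 1 left out, 15 of 26 lay above 0, against 43.5% of probe sets. The median was then 0.058, against -0.029 over these probe sets, a unit other than the genes used above. In 4 members the groups did not overlap (15.4%, against 7.63% of genes): Hk2 was higher in all deficient samples (2.41% of genes), and Pfkm, Ldhb and Slc2a3 were lower (5.23% of genes). The deficient sample differed from its litter mate in the same direction in all 3 litters for 14 members (53.8%), against 30.5% of genes. A gene with both samples of a litter at the floor cannot count here. One with floor values in both groups cannot be free of overlap. Members and all genes were not matched for signal in either share, so these gaps are no measure of the members alone.

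The lactate dehydrogenase subunits are described first. The enzyme is a tetramer of the subunits encoded by Ldha and Ldhb; Ldha-rich forms are known for making lactate in glycolytic tissue, and Ldhb-rich forms for oxidising lactate to pyruvate. On its brightest probe set, 1448237_x_at, Ldhb had signals of 122, 245 and 199 in deficient samples 1, 2 and 3 and of 312, 537 and 561 in the proficient samples of the same litters. Every deficient sample lay below every proficient one. The means were 189 ± 62.1 and 470 ± 137 (SD, n = 3 each), the deficient-over-proficient ratios 0.391, 0.457 and 0.354 in litters 1, 2 and 3, and the log2 difference -1.19. Its standard error was 0.22 in the blocked limma fit (adjusted p = 0.0085) and 0.39 without a litter term (limma, unadjusted p = 0.0111, adjusted p = 0.9998). By exact permutation of the samples (two-sided) p was 0.1, and 3 samples against 3 cannot give less. Flt3 and Hlf fell in the same blocked fit, as given above, and the part of the makeup of the LSK fraction in the Ldhb difference was not tested.

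Ldhb has 4 probe sets, and all of them were lower in the deficient sample of all 3 litters. Probe set 1434499_a_at read 91.6, 211 and 125 in deficient and 307, 631 and 525 in proficient samples, with a log2 difference of -1.59 (limma with litter as a block, adjusted p = 0.000661). It showed the largest of the 4 differences, again with no overlap between groups. Probe set 1455235_x_at read 121, 221 and 166 against 236, 360 and 526, a log2 difference of -0.99 (adjusted p = 0.0479 in the same fit). Probe set 1416183_a_at read 129, 267 and 216 against 217, 446 and 477, a log2 difference of -0.79 that did not pass (adjusted p = 0.12), and its groups overlapped. The 4 probe sets target 1 transcript pool and are not independent replicates. The Ldhb call ended when no filter on low signals was used (blocked limma fit, adjusted p = 0.942), with the mean over its probe sets (0.0593), and without litter 1, 2 or 3 (0.718, 0.687 and 0.581), while the log2 difference stayed between -1.27 and -1.11 in those fits.

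Ldha, measured by a single probe set, went the other way in each litter without passing. It read 962, 2539 and 2061 in deficient samples and 605, 1884 and 1728 in proficient samples, ratios of 1.59, 1.35 and 1.19, and the groups overlapped because both samples of litter 1 were low. The log2 difference was 0.44 ± 0.23 (SE; limma with litter as a block, adjusted p = 0.476). Without the proficient sample of litter 1 the log2 difference was -0.071 in the fit without a litter term. That fit keeps the low deficient sample of litter 1 without its litter mate, so the level of that litter enters the difference.

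**Figure D2:**
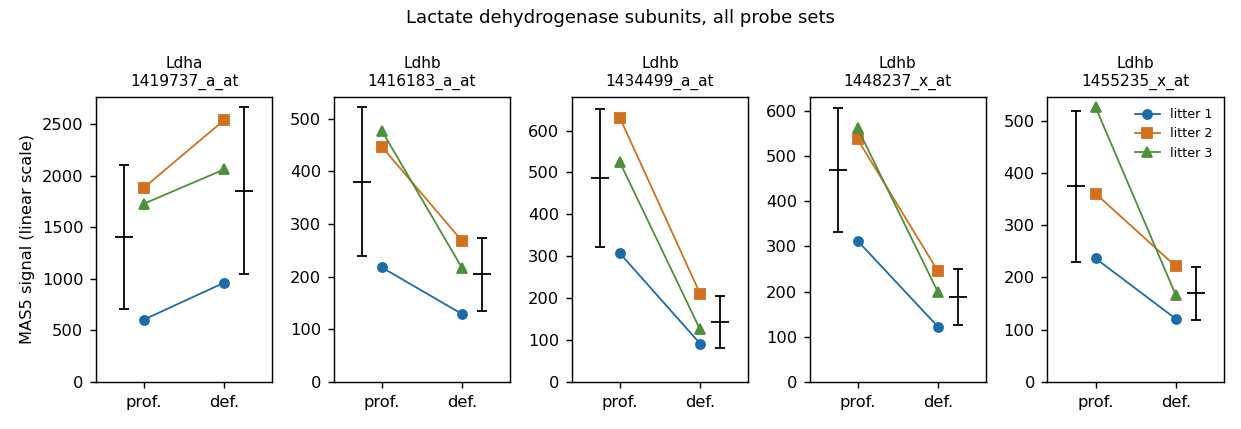
MAS5 signal on a linear scale for the Ldha probe set and the 4 Ldhb probe sets, with 1 line per litter from the proficient (prof.) to the deficient (def.) sample; black bars give the mean ± SD of 3 samples. All 12 Ldhb lines go down and all 3 Ldha lines go up.

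The balance between both subunits was taken as the within-array log2 difference of their probe sets, which shows unequal change and gives no order of their levels. For Ldhb minus Ldha it was -2.70, -3.22 and -3.19 in deficient and -0.89, -1.76 and -1.57 in proficient samples. Every deficient sample lay below every proficient one, and the change was -1.81, -1.47 and -1.62 in litters 1, 2 and 3, with a mean of -1.63. Exact permutation of the samples (two-sided) gave 0.1, again its smallest possible p, and 0.64 after adjustment over the 8 contrasts computed. Within litters the exact sign-flip test gave p = 0.25, the smallest that 3 litters can give.

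The sequences before the annotated starts of both genes are shown because their expression differed in direction between the genotypes. They are the 250 bases upstream of the start in RefSeq on GRCm38.p6, printed 5′ to 3′ in the direction of transcription, with capitals for ACGTG and GCGTG on either strand, the core letters that hypoxia-inducible factor is known to bind. The Ldhb window is chr6:142507958-142508207 on the minus strand, and the Ldha window, before the more upstream of its 2 annotated starts, is chr7:46845554-46845803 on the plus strand.
Ldhb: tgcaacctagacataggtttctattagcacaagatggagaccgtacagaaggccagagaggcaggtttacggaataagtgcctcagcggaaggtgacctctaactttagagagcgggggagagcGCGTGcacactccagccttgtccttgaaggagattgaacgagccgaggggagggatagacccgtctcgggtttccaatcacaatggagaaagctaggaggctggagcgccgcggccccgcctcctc
Ldha: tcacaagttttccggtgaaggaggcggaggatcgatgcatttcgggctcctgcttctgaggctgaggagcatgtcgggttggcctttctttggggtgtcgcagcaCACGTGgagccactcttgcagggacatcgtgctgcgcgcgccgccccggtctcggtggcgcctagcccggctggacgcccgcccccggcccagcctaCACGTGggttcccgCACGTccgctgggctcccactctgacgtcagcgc
The Ldhb window holds 1 GCGTG and no ACGTG. The Ldha window holds CACGTG at 2 places, each of which reads as ACGTG on both strands, and 1 further ACGTG on the opposite strand. Among the 32 members with a promoter window, 16 (50%) hold ACGTG in at least 1 window, against 18.5% of 27025 genes, 19 (59.4%) hold GCGTG, against 30.9%, and 6 (18.8%) hold CACGTG, against 6.86%. These are letter matches in a short window and no measure of binding, and the windows were not matched for base composition or for the number of annotated starts.

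Carriers of glucose and lactate differed in direction. Slc2a3, the high-affinity glucose transporter GLUT3, read 285, 183 and 230 in deficient and 589, 296 and 328 in proficient samples. Every deficient value lay below every proficient value, with ratios of 0.484, 0.618 and 0.701. The log2 difference was -0.68 ± 0.22 (SE; limma with litter as a block, unadjusted p = 0.00597, adjusted p = 0.199), so it did not pass. A second probe set, 1455898_x_at, read 192, 152 and 167 against 362, 267 and 191 and was also lower in each litter (log2 difference -0.56), and a further 2 lay at the floor on all arrays.

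Slc2a1, the widely expressed glucose transporter GLUT1, read 446, 617 and 449 in deficient and 654, 634 and 488 in proficient samples. The values were lower in each deficient sample than in its litter mate, but by little in litters 2 and 3 (ratios 0.974 and 0.921), and the groups overlapped. Its other 2 probe sets gave log2 differences of -0.09 and 0.05. The change of Slc2a3 relative to Slc2a1 was -0.46 on the log2 scale, between -0.58 and -0.35 by litter (exact two-sided permutation test, p = 0.4, and 0.64 adjusted over the 8 contrasts).

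Slc16a1, the monocarboxylate carrier MCT1 that moves lactate and pyruvate across the plasma membrane, was higher in each deficient sample than in its litter mate. It read 1658, 794 and 1384 in deficient and 840, 658 and 664 in proficient samples, ratios of 1.97, 1.21 and 2.08. The groups overlapped only through the deficient sample of litter 2, which lay below the proficient sample of litter 1. The log2 difference was 0.75 ± 0.23 (SE; limma with litter as a block, unadjusted p = 0.00378, adjusted p = 0.16). The lactate exporter Slc16a3 (MCT4) lay at the floor on all arrays. The Slc16a1 window, chr3:104638414-104638663 on the plus strand in the same build, is shown as that of the lactate carrier that, like Ldha, was higher in each deficient sample; it holds 1 CACGTG and 2 GCGTG on either strand, with the same use of capitals.
Slc16a1: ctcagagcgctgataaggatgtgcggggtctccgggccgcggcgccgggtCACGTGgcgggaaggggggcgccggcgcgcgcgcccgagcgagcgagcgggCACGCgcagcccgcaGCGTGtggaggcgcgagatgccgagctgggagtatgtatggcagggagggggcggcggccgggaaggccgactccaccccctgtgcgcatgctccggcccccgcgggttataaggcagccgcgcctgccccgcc

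**Figure D3:**
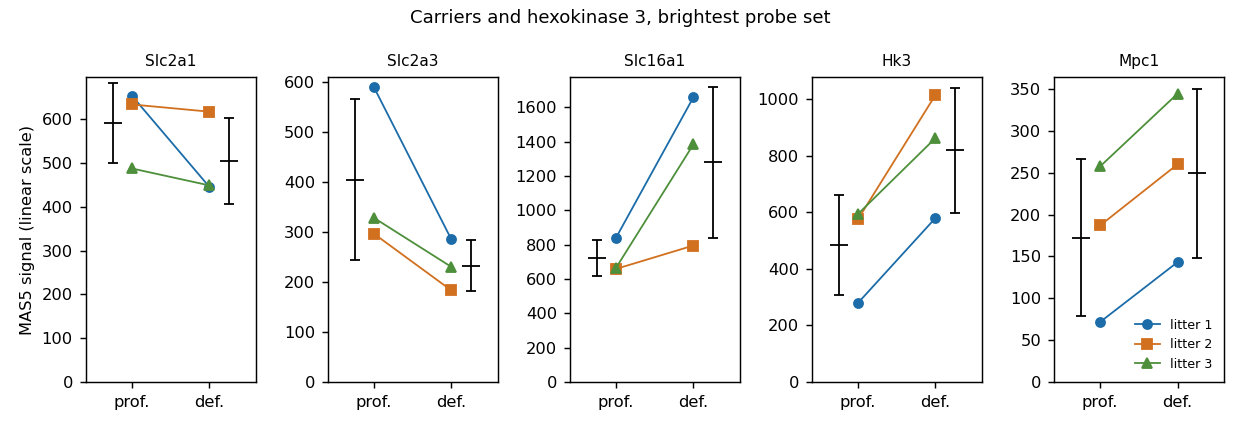
MAS5 signal on a linear scale for the carriers Slc2a1, Slc2a3, Slc16a1 and Mpc1 and for Hk3, with 1 line per litter from the proficient (prof.) to the deficient (def.) sample and black bars for the mean ± SD of 3 samples. Lines go down in all litters for Slc2a1 and Slc2a3 and up in all litters for Slc16a1, Hk3 and Mpc1.

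Among the enzymes of upper glycolysis, from glucose phosphorylation to the triose phosphates, 9 of 10 tested members had a log2 difference above 0, against 46.8% of genes. By litter 7, 6 and 7 of the 10 lay above 0 in litters 1, 2 and 3, Aldoc was at 0.007 on average, and none passed. Hexokinases trap glucose in the cell as glucose 6-phosphate. Hk3, the hexokinase known from granulocytes and monocytes, read 579, 1014 and 862 in deficient and 279, 575 and 594 in proficient samples, ratios of 2.07, 1.76 and 1.45. The deficient sample was the higher one in each litter, and the groups overlapped only because the deficient sample of litter 1 lay below the proficient sample of litter 3. The log2 difference was 0.76 ± 0.22 (SE; limma with litter as a block, unadjusted p = 0.00232, adjusted p = 0.129). A second probe set, 1435490_at, read 200, 247 and 326 against 81.6, 216 and 169, a log2 difference of 0.68. The summed signals of the granulocyte markers, given above, were also higher in the deficient sample of each litter. Single markers differed in their course over litters 1, 2 and 3, with ratios of 16.5, 5.44 and 2.90 for S100a8 and 3.90, 8.66 and 16.0 for Ngp. The part of these markers in the Hk3 difference was not tested.

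Hk2, the insulin- and hypoxia-responsive hexokinase, read 283, 310 and 352 in deficient and 168, 271 and 256 in proficient samples, with no overlap. Its log2 difference of 0.42 did not pass (limma with litter as a block, adjusted p = 0.502). Hk1, the housekeeping hexokinase, read 262, 193 and 186 against 113, 331 and 181, with ratios of 2.33, 0.583 and 1.03 that point in both directions. Relative to Hk1, Hk3 changed by 0.64 and Hk2 by 0.29 on the log2 scale, with litter values of both signs (exact two-sided permutation tests, p = 0.3 and 0.4, and 0.64 adjusted for each).

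Phosphofructokinase, the committed step, is built from 3 subunits. The muscle-type subunit Pfkm read 91.1, 84 and 89 in deficient and 108, 139 and 112 in proficient samples, so that the groups did not overlap, but its log2 difference of -0.34 did not pass (limma with litter as a block, adjusted p = 0.635). The platelet-type Pfkp was higher in each deficient sample, with ratios of 1.08, 1.55 and 1.14, and the liver-type Pfkl varied, with ratios of 1.88, 2.00 and 0.632; the proficient sample of litter 1 lay at the floor for Pfkl. Pfkfb3, which makes the activator fructose 2,6-bisphosphate, had signals between 30.4 and 59.4 on all arrays, close to the floor. The aldolase Aldoa and the isomerase Tpi1 differed far more between litters than between genotypes. Aldoa read 515, 1645 and 1340 in deficient and 571, 1520 and 1017 in proficient samples, and Tpi1 541, 1380 and 1268 against 442, 1426 and 1268, so that both samples of litter 1 were low for each gene. Their log2 differences were 0.12 and 0.08. The brain-type aldolase Aldoc lay between 34.8 and 66.3 on all arrays.

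Lower glycolysis, which yields ATP and pyruvate, had 4 tested members, of which 3 were higher on average, against 46.8% of genes, and none passed. By litter 3, 2 and 3 of the 4 were higher in litters 1, 2 and 3. Pgk1, the first ATP-forming enzyme, read 3382, 6256 and 5224 in deficient and 2050, 5546 and 4059 in proficient samples on its brightest probe set, a log2 difference of 0.42 (limma with litter as a block, adjusted p = 0.558). Its 3 probe sets differed in size: the 1439435_x_at probe set read 1318, 1003 and 1800 against 678, 664 and 827, with no overlap and a log2 difference of 0.87 (adjusted p = 0.0765 in the same fit), and 1417864_at gave 0.20 with a lower deficient value in litter 2. Pgam1, the phosphoglycerate mutase, was higher in each litter, with ratios of 1.30, 1.25 and 1.17 and a log2 difference of 0.29. Pkm, pyruvate kinase, read 164, 184 and 210 against 99.8, 250 and 200, with a lower deficient value in litter 2. Bpgm, which makes the haemoglobin effector 2,3-bisphosphoglycerate in red cells, read 78.7, 58.8 and 51.3 against 82.6, 77.2 and 81.7 and was lower in each litter, with a log2 difference of -0.26 (limma with litter as a block, adjusted p = 0.702).

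Gapdh, which oxidises glyceraldehyde 3-phosphate, could be read only through the array's control probe sets. The control at the 3′ end read 1173, 2570 and 3855 in deficient and 790, 2245 and 2348 in proficient samples, ratios of 1.49, 1.14 and 1.64. The control at the 5′ end read 44.7, 476 and 784 against 63.3, 284 and 354, so its ratio was below 1 in litter 1, at 0.707, and above 1 in litters 2 and 3. The 3′ minus 5′ log2 difference, a measure of RNA quality and amplification, was 4.01, 2.36 and 2.26 in deficient and 3.13, 2.86 and 2.63 in proficient samples. It was largest in litter 1, the litter in which Aldoa, Tpi1 and Ldha were lowest in both samples; its part in those levels was not tested.

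The carrier, the dehydrogenase subunits and the kinases that set the entry of pyruvate into mitochondria had 6 tested members, and none passed. The log2 difference was above 0 in 6 of 6, against 46.8% of genes, and by litter in 6, 4 and 4 of them in litters 1, 2 and 3. Mpc1, a subunit of the mitochondrial pyruvate carrier, read 143, 260 and 344 in deficient and 71.6, 187 and 258 in proficient samples, ratios of 2.00, 1.39 and 1.34. Each deficient sample lay above its litter mate, and the ranges of the groups overlapped widely because litter 1 was low and litter 3 high. The log2 difference was 0.52 ± 0.23 (SE; limma with litter as a block, unadjusted p = 0.0324, adjusted p = 0.373), and its standard error was 0.46 without a litter term. The subunits of pyruvate dehydrogenase, Pdha1, Pdhb and Dlat, had log2 differences of 0.13, 0.12 and 0.09. Weaker probe sets pointed the other way: 1449137_at of Pdha1 was lower in each deficient sample (log2 difference -0.24), as was 1452005_at of Dlat, at 61, 72.3 and 55.9 against 119, 109 and 81.1 (log2 difference -0.51).

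The pyruvate dehydrogenase kinases restrain that entry and are linked to stem cell quiescence. Pdk1 read 548, 955 and 615 in deficient and 414, 1095 and 596 in proficient samples, and Pdk3 82.5, 159 and 166 against 67.9, 226 and 123. Both had a lower deficient value in litter 2 and a higher one in the other litters, with log2 differences of 0.08 and 0.04. Weaker probe sets of Pdk1 differed in sign, with log2 differences of 0.29 for 1423748_at, -0.03 for 1434974_at and -0.11 for 1435836_at. The change of Pdk3 relative to Pdk1 was -0.04 (exact two-sided permutation test, p = 1). Pdk2 lay at the floor on all arrays.

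Hif1a, the oxygen-regulated subunit of hypoxia-inducible factor 1, read 873, 595 and 385 in deficient and 1132, 352 and 570 in proficient samples. The deficient sample was the lower one in litters 1 and 3 and the higher one in litter 2, and the log2 difference was -0.06 (limma with litter as a block, adjusted p = 0.941) and turned to 0.0037 with median centring. A weaker probe set, 1416035_at, was lower in each litter, at 135, 101 and 101 against 143, 143 and 131 (log2 difference -0.26).

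**Figure D4:**
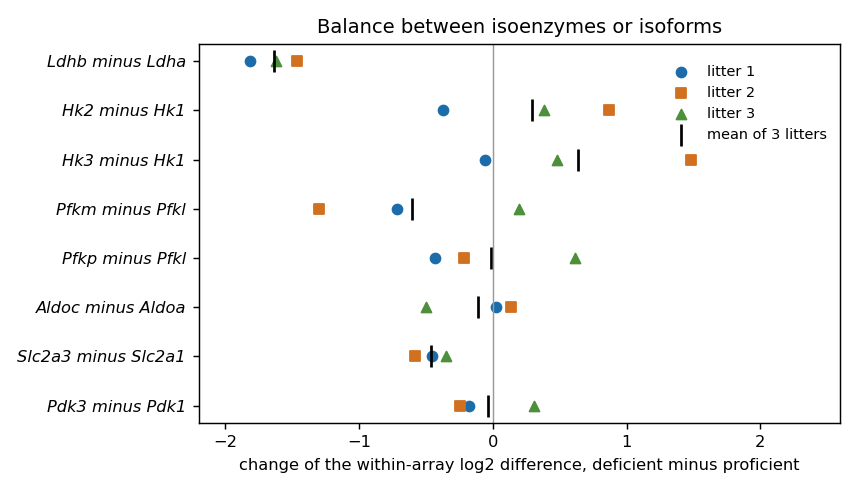
Change of the within-array log2 difference between 2 isoenzymes or isoforms, deficient minus proficient, for the 8 contrasts computed, with 1 point per litter and a black bar for the mean. Ldhb minus Ldha lies between -1.81 and -1.47, Slc2a3 minus Slc2a1 between -0.58 and -0.35, and the other 6 contrasts have litters on both sides of 0.

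Other genes of these pathways, 98 in 5 lists, gave 72 tested genes, of which 0 passed in either direction in limma at an adjusted p under 0.05, be it with the block or without a litter term. Without that term 0 also had an unadjusted p under 0.05 in limma. At an unadjusted p under 0.05 in limma with litter as a block 8 of them (11.1%) were found, against 12.1% of genes. The log2 difference was above 0 in 35 (48.6%, against 46.8% of genes) and below 0 in 37. Those named next had the smallest unadjusted p of their list in the blocked fit. Among 16 further enzymes of glycolysis and its side reactions, Fbp1, the gluconeogenic fructose bisphosphatase, read 176, 487 and 659 in deficient and 132, 259 and 274 in proficient samples (log2 difference 0.79, adjusted p = 0.135 in limma with litter as a block). Pfkfb2 had a log2 difference of -0.53, Adpgk one of 0.45 and Gpd2 one of 0.42. Among 11 further carriers Slc2a10 and Slc16a7 had 0.31 and 0.30, and among 13 further pyruvate enzymes the kinase gene Pdk4 was at 98 in the proficient sample of litter 1 and at the floor elsewhere, while the phosphatase gene Pdp1 had 0.42.

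Partners, hydroxylases and other targets of hypoxia-inducible factor had 16 tested genes, 6 above (37.5%, against 46.8% of genes) and 10 below 0, with a median of -0.16. The hydroxylase gene Egln3 read 120, 184 and 159 in deficient and 78.1, 113 and 117 in proficient samples without overlap. The stress-induced mTOR inhibitor Ddit4 read 34.7, 130 and 512 against 214, 184 and 476. Neither passed (adjusted p = 0.455 and 0.308 in limma with litter as a block). Ndrg1 was also without overlap, but lower, at 533, 542 and 505 against 692, 700 and 545 (adjusted p = 0.683 in the same fit). It is named for this after its values were seen. Genes without overlap made up 12.5% of this list, against 7.63% of genes. Among 16 other regulators the median was -0.19. Myc, a transcriptional activator of Ldha and other glycolytic genes, read 509, 451 and 531 in deficient and 722, 864 and 829 in proficient samples, with no overlap (adjusted p = 0.205). Txnip, a glucose-responsive inhibitor of glucose uptake, read 930, 868 and 1308 against 3638, 1300 and 1733 (adjusted p = 0.105). Meis1, a stem cell regulator known to act on Hif1a, read 638, 398 and 219 against 935, 535 and 683 (adjusted p = 0.137), and Sco2, a cytochrome oxidase assembly factor, 35.2, 43.5 and 59.1 against 63.7, 80.7 and 95 (adjusted p = 0.303). All 4 were lower in the deficient sample of each litter, and none passed. Sirt6, a deacetylase gene whose product is known to repress glycolytic genes, was the other one of this list with an unadjusted p under 0.05 in the blocked limma fit and is named after its values were seen. It read 209, 144 and 168 in deficient and 92.1, 104 and 123 in proficient samples, higher in each litter with no overlap, and did not pass (limma, log2 difference 0.57, adjusted p = 0.349).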

How the data were processed

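RNA from 6 sorted LSK samples was measured on 1 array each. The deposited values are signal intensities on a linear scale. The submitters' processing notes name MAS5, without a version, as the authors' method; no value lies below 30, and the sources used here do not give the step that set this floor.

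Groups came from the titles, and the source labels name samples of equal number as litter mates. Over 22519 probe sets, the deviation from the group mean correlated between litter mates with r = 0.77, 0.67 and 0.46, so litter served as a block beside the fit without it. Values were transformed as log2(signal + 30), which understates changes of weak genes. After 64 control probe sets were left out, the 22519 of 45037 probe sets with a mean signal at or above the median (32.6) were fitted with limma 3.58.1 in R 4.3.3 (lmFit, eBayes with a variance trend), with Benjamini-Hochberg adjustment over all of them at 0.05. One fit has group as its only term and the other, from which the Ldhb call comes, has group and litter. The number of arrays limits the precision. Both fits were tested on simulated data. Names came from the platform annotation; all 29 member symbols matched RefSeq through Entrez identifiers. Suffixes _x_at and _s_at mark probe sets that may also bind other transcripts.

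Members, gene lists and tests were chosen with earlier results of these data known. Every member is accounted for, and those with an unadjusted p under 0.05 in either fit, no overlap with a log2 difference of at least 0.5 in size, or a place in an isoenzyme contrast with such a member are given by sample, as is Hif1a. Others given by sample were chosen to show each step of the pathway. Promoter sequences are from RefSeq; Slc2a3 had no entry.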

Additional observations from a re-analysis of the deposited data

How the results depend on the processing

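Ldhb was lower in deficient cells under all 26 alternatives run. The titles' numbers pair litter mates; the replicate block raised the number of members past an adjusted p of 0.05 in limma from 0 to 1 (Ldhb) and changed no other member's call. With the block, 0 members and 0 probe sets passed without litter 1, 2 or 3 and with no filter on low signals. Of the settings with the block, those on the filter, the variance trend, the pseudocount, median centring and the mean over probe sets were chosen after seeing the data. Averaging all probe sets of a gene, 0 members and 14 of 9097 genes passed; against 188 probe sets in the blocked fit, 300 passed with median centring and 114 with no variance trend. Without the block no alternative gave a member past the threshold.

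The median log2 difference of the members ranged from -0.034 to 0.28 when single samples were left out. Of 666 member values under the alternatives 42, in 15 members, had the opposite sign, none of them past the threshold. With median centring Hif1a was at 0.0037, and with the mean over probe sets Pdha1 was at -0.055 and Dlat at -0.16, each with and without the block. Fits that leave out a single sample have no litter term and break a litter pair, so differences between litters enter them. Fits that leave out a whole litter keep the block. The ranges given next pool both kinds. Leaving out single samples or litters moved the log2 difference from -0.33 to 0.53 for Hk1, -0.0066 to 0.63 for Pfkl, -0.023 to 0.46 for Pfkp, -0.076 to 0.41 for Pfkfb3, -0.24 to 0.61 for Aldoa, -0.12 to 0.17 for Aldoc, -0.44 to 0.49 for Tpi1, -0.24 to 0.32 for Pkm, -0.071 to 0.85 for Ldha, -0.23 to 0.44 for Pdk1, -0.30 to 0.39 for Pdk3, -0.028 to 0.29 for Pdhb, -0.053 to 0.24 for Dlat and -0.45 to 0.36 for Hif1a.

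The change of Ldhb relative to Ldha stayed between -1.81 and -1.38 when single samples were left out. That of Pfkp relative to Pfkl ranged from -0.34 to 0.43 and was 0.034 with a pseudocount of 100 and 0.037 with the mean over probe sets. That of Aldoc relative to Aldoa ranged from -0.64 to 0.35 and was 0.020 with quantile normalization, and that of Pdk3 relative to Pdk1 ranged from -0.25 to 0.076 and was 0.050 with quantile normalization. The cause of these shifts was not tested. The 3 members at the floor of 30 on all 6 arrays could not be compared. Members near the floor, Pfkfb3 and Aldoc among them, were tested and counted, and changes of such weak genes are understated.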
